A study of Mus musculus with 3 samples.

Results

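The kinesin motors of axonal transport were followed across the sorted cells of the *Tbr1* layer 5 mutants. The set is a list of gene symbols that was drawn up with earlier results of these data known, and it holds 10 of the 14933 genes in the deposited table of filtered cells. Its members are the vesicle motors Kif1a and Kif1b, the conventional kinesin heavy chains Kif5a, Kif5b and Kif5c with their light chain Klc1, the subunits Kif3a and Kif3b of heterotrimeric kinesin-2, the microtubule depolymerizer Kif2a, and Kif21a, a kinesin-4 motor. All 10 were found in the table by symbol, each with 1 gene identifier, and all 10 also passed the stricter gene filter that the authors applied to neuronal cells.

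Kinesins are motor proteins that walk along microtubules and use ATP to carry cargo, mostly toward the plus end and therefore toward the axon terminal. KIF1A and KIF1B carry precursors of synaptic vesicles and dense-core vesicles, KIF5 carries mitochondria and many membrane cargoes, and kinesin-2 serves both axons and cilia. KIF2A, by contrast, shortens microtubules at their ends and prunes axon branches rather than carrying cargo. In cortical neurons these motors supply growing axons and new synapses, which form in the first postnatal weeks.

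The cells came from medial prefrontal cortex (mPFC) of C57Bl6 mice at P5, were sorted by FACS for tdTomato, and were captured as 1 10X Genomics library per genotype. All 3 libraries carry Rbp4-Cre, which drives recombination in layer 5 projection neurons, and a Cre-dependent tdTomato reporter. The wild-type library (Rbp4cre::tdTomato) has no floxed allele of Tbr1, the *Tbr1* layer 5 heterozygous library (Tbr1f/+::Rbp4cre::tdTomato) has 1, and the *Tbr1* layer 5 homozygous library (Tbr1f/f::Rbp4cre::tdTomato) carries only floxed Tbr1. The sources used here do not say how many animals stand behind a library, so values below are for 3 libraries and have no replicate error.

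The cells were divided into 3 classes. Typical neuronal cells are those the authors kept for differential expression, and their numbers were 1778 (wild-type), 5357 (heterozygous) and 3935 (homozygous). Atypical neuronal cells, which the authors set aside for low excitatory markers and high housekeeping genes, number 304, 107 and 462 in the same order. The 10 excitatory neuron markers, Neurod6, Slc17a7 and Tbr1 among them, summed to 849, 2710 and 1551 CPM (counts per 1000000 UMIs) in the atypical cells. In the typical cells they summed to 2255, 2706 and 3400 CPM, so the sum is not lower in the heterozygous atypical cells. Single markers can differ from the sum: in that class Tbr1 had 9.2 CPM on 2 UMIs and Neurod2 was at 0. Neurod6 and Nrgn, the markers the paper names for these cells, were not read singly. The other sorted cells, 2873, 1398 and 1182, passed the filters of the authors but lie outside their neuronal table, and they include clusters with inhibitory and excitatory markers, so they are not called non-neuronal. Typical cells hold 3670646, 10418228 and 6074494 unique molecular identifiers (UMIs) in these libraries, with medians of 1901, 1743 and 1375 per cell. Their median share of mitochondrial UMIs was 10.4%, 15.4% and 12.5%. In typical cells none of the excitatory markers was at 0, and the 10 inhibitory markers summed to 599.9, 537 and 661 CPM. The inhibitory sum was 656, 790 and 672 CPM in empty droplets, which are defined below. The 8 markers of astrocytes and radial glia summed to 8598, 7542 and 8457 CPM in typical cells, more than the excitatory markers. They summed to 6527, 6752 and 6306 CPM in the other sorted cells and to 8287, 7833 and 8528 CPM in empty droplets. Where these UMIs come from was not tested. Of 17255 barcodes, 139 occur in 2 libraries and 1 in all 3. Tbr1 itself had 27.5, 30.7 and 22.4 CPM in the wild-type, heterozygous and homozygous libraries, but counts from 3′ ends do not show whether the floxed exons were present, so this checks nothing about the labels.

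Levels below are CPM over the summed UMIs of all cells of a class in a library. Intervals are 95% intervals for counting error only. With 1 library per genotype no test was run, and a member is described as lower or higher by size, at a log2 ratio of 0.32 or more in either direction, among the 4261 genes whose mean over the libraries reached 20 CPM. The heterozygous and homozygous comparisons share the wild-type library, so their directions are not independent.

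Kif1a, the motor of synaptic vesicle precursors, had 773 CPM (745 to 802) in typical cells of the wild-type library. The heterozygous level was 491 CPM (478 to 505) and the homozygous level 504 CPM (486.5 to 522). The log2 ratio to wild-type was −0.65 (−0.72 to −0.59) for the heterozygous and −0.62 (−0.69 to −0.54) for the homozygous library, and the mutant libraries differed from each other by 0.04 (−0.03 to 0.10). Both mutant libraries were thus below wild-type and within counting error of each other. Of 3 reference genes read in the same cells, Gapdh, a glycolytic enzyme, was also lower in both, with log2 ratios of −0.37 (−0.42 to −0.31) and −0.48 (−0.54 to −0.42), while Actb (0.15 and 0.22) and Tubb3 (0.17 and 0.20) were higher. Gapdh was lower in the atypical and in the other sorted cells as well, by −0.39 to −0.61, and what this has to do with Kif1a was not tested. The study singled out Kif1a from these same libraries, so its direction here is not independent evidence. The paper also reports reduced Kif1a by in situ hybridization in mPFC of homozygous mutants, which was not examined here. Free RNA differed in the same direction: in empty droplets, those with at least 100 and fewer than 500 UMIs, Kif1a had 753, 397 and 459 CPM in the wild-type, heterozygous and homozygous libraries. After removal of the empty-droplet profile at the largest share that non-neuronal markers allow in typical cells, 22.0%, 11.9% and 16.2% of their UMIs, the log2 ratios were −0.63 and −0.60. Without the barcodes that occur in more than 1 library they were −0.64 and −0.61.

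**Figure D1:**
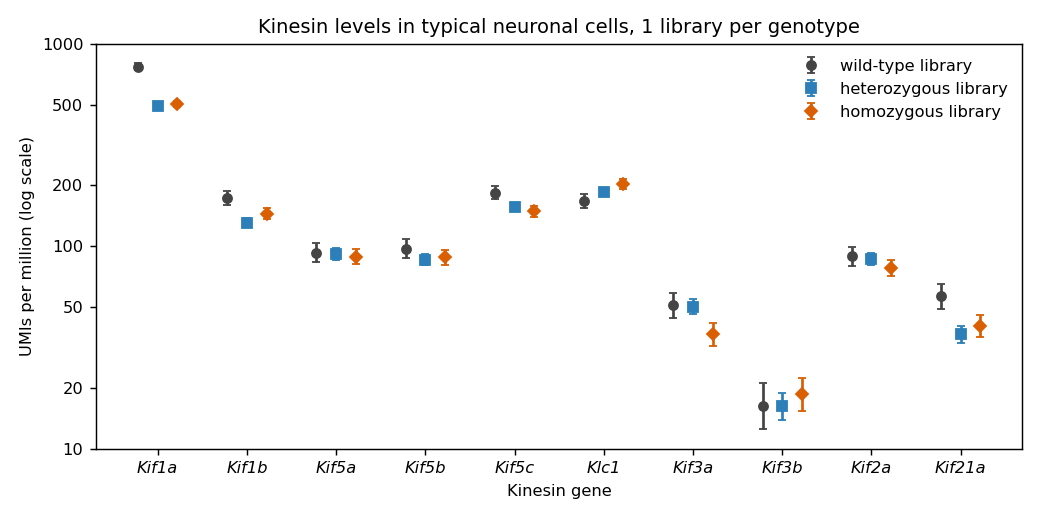
Level of each kinesin in typical neuronal cells, in CPM on a log axis, with 1 point per library and bars for the exact Poisson 95% interval. Kif1a is at 773 in the wild-type library and at 491 and 504 in the mutant libraries, whereas Kif5a lies between 88.7 and 93.2 in all 3.

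Kif1b, the close relative of Kif1a whose isoforms carry mitochondria or synaptic vesicle precursors, had 174, 131 and 145 CPM in the wild-type, heterozygous and homozygous libraries. Its log2 ratio to wild-type was −0.41 (−0.55 to −0.27) with 1 floxed allele and −0.26 (−0.41 to −0.11) in the homozygous library. Only the first is past 0.32. Kif1b was 0.15 (0.03 to 0.28) higher on the log2 scale in the homozygous than in the heterozygous library.

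The heavy chains of conventional kinesin lay closer to wild-type than Kif1a did. Kif5c, the neuron-enriched heavy chain, had 184 CPM in wild-type, 157 in heterozygous and 149 in homozygous cells, with log2 ratios to wild-type of −0.23 (−0.36 to −0.10) and −0.31 (−0.45 to −0.16). Kif5a, the heavy chain mutated in a hereditary spastic paraplegia, had 93.2, 91.8 and 88.7 CPM, and its log2 ratios of −0.02 (−0.20 to 0.16) and −0.07 (−0.27 to 0.13) have intervals that include 0. Kif5b, the ubiquitous heavy chain, had 97.5, 86.1 and 88.6 CPM, with log2 ratios of −0.18 (−0.36 to 0.00) and −0.14 (−0.33 to 0.06). None of the heavy chains was past 0.32 in either mutant library, although Kif5c, the nearest to it, was past it in both when cells were thinned to 1000 UMIs, at −0.33 and −0.36. The mixture of heavy chains was also close between libraries, since Kif5c made up 49.1% (46.5 to 51.8), 46.8% (45.2 to 48.5) and 45.6% (43.4 to 47.9) of all Kif5 UMIs in typical cells. Much of the coding sequence of these 3 paralogs is alike, and how reads shared between them were assigned was not examined.

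Klc1, the light chain that couples KIF5 to its cargo, was the only member at 20 CPM or more whose level was above wild-type in both mutant libraries. It had 168 CPM in wild-type, 186 in heterozygous and 203 in homozygous cells. The log2 ratios were 0.14 (0.01 to 0.28) and 0.27 (0.13 to 0.41), short of 0.32, and Klc1 in empty droplets was 140, 174 and 173 CPM in the same order. As UMIs per cell rather than CPM, Klc1 in the homozygous library was below wild-type, at a log2 ratio of −0.15, but on that scale the median of all genes is −0.34, so Klc1 stood above the median gene on either scale.

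In the kinesin-2 pair, Kif3a had 51.2 CPM in wild-type, 50.3 in heterozygous and 36.7 in homozygous cells. It was the only member past 0.32 between the mutant libraries, with a log2 ratio of −0.45 (−0.69 to −0.23) for homozygous over heterozygous, and 2.68% of all genes were lower by that size in this comparison. With cells matched in bins of 100 UMIs the ratio was −0.29, short of 0.32. No member was higher by that size there, beside 4.04% of all genes. Against wild-type the log2 ratio of Kif3a was −0.03 (−0.27 to 0.22) with 1 floxed allele and −0.48 (−0.77 to −0.19) in the homozygous library. Kif3b, its partner subunit, had 16.3, 16.2 and 18.6 CPM on 60, 169 and 113 UMIs, which falls under the 20 CPM minimum. A difference in Kif3b was not detectable at this depth, with homozygous over wild-type at 0.19 (−0.28 to 0.66).

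Kif2a had 89.6, 86.9 and 78.4 CPM, with log2 ratios to wild-type of −0.05 (−0.23 to 0.14) and −0.19 (−0.40 to 0.01). Kif21a, which pauses microtubule growth near the cell cortex, had 56.7 CPM in wild-type, 36.8 in heterozygous and 40.5 in homozygous cells. Its log2 ratios of −0.62 (−0.87 to −0.37) and −0.48 (−0.76 to −0.21) were, with those of Kif1a, the only ones past 0.32 in both mutant libraries at full depth. In empty droplets Kif21a had 45.7, 37.3 and 34.3 CPM. Kif21a rests on 208, 383 and 246 UMIs, so its intervals are wide beside those of Kif1a with 2838, 5120 and 3063.

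**Figure D2:**
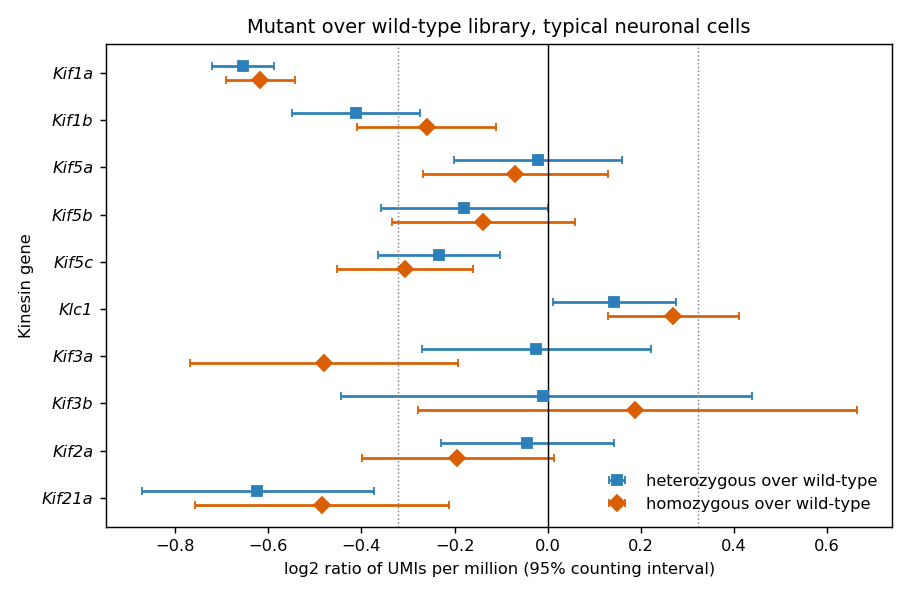
Log2 ratio of CPM in each mutant library over the wild-type library for the 10 kinesins in typical neuronal cells, with exact 95% counting intervals and dotted lines at 0.32 in each direction. Kif1a and Kif21a lie past the lower line in both libraries, and Klc1 is above 0 in both without reaching the upper line.

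Across the set, 9 members averaged 20 CPM or more. In the heterozygous library 3 of the 9 were lower than wild-type by at least 0.32 on the log2 scale (Kif1a, Kif1b and Kif21a), beside 9.5% of all genes tested. In the homozygous library 3 of the 9 were lower (Kif1a, Kif3a and Kif21a), beside 8.5% of all genes. Lower in both were 2 members, beside 5.68% of all genes. No member was higher by 0.32 in either library, beside 17.1% and 17.2% of all genes, or in both, beside 11.7%. At 1.5-fold, Kif1a and Kif21a were lower in the heterozygous library, beside 2.39% of genes, and Kif1a in the homozygous library, beside 1.95%. The median log2 ratio of the 9 members was −0.18 for heterozygous and −0.26 for homozygous cells, against 0.06 and 0.08 over all 4261 genes. In each comparison 8 of the 9 members were below 0, as were 41.2% and 39.0% of all genes. Summed over the 10 members, the level was 1704, 1333 and 1353 CPM in the wild-type, heterozygous and homozygous libraries, and Kif1a alone accounts for most of that difference.

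Upstream sequence was looked up because TBR1 is a T-box transcription factor. The RefSeq promoter table (GRCm38.p6) holds 8 of the 10 members, counting Kif1a, Kif1b, Kif2a, Kif3a, Kif3b, Kif5c, Kif21a and Klc1, in 11 windows, since Kif1a, Kif1b and Kif2a have 2 each. The 250 bases before the annotated start were searched, and those that lie outside the gene in GENCODE M21 are printed for Kif1a and Kif21a, the members lower in both mutant libraries, and for Klc1 and Kif5c, which differ from them in direction or size. The choice was made with these values known, and for Kif1a the first window listed is shown. Kif1a is read from the minus strand at chr1:93101952-93102124, Kif21a from the minus strand at chr15:91049952-91050201, Klc1 from the plus strand at chr12:111758618-111758848 and Kif5c from the plus strand at chr2:49619036-49619285. Sequences run 5′ to 3′ toward the start, from which distances are counted. For Kif1a and Klc1 the last 77 and 19 bases before it lie inside the gene and are not printed. A GC box of Klc1, 8 bases before the start, falls in that part. Capitals mark matches on either strand to any of the 7 motifs searched. These were the T-box letters TCACACC, the cAMP response element TGACGTCA, the GC box GGGCGG, the palindromic NRF1 motif, the E-box CAGCTG, the CCAAT box CCAAT and TTCAGCACC, a part of the RE1 element.
Kif1a: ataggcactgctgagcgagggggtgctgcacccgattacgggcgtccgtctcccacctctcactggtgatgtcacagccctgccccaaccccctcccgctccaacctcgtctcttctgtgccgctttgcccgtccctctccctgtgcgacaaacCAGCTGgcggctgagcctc
Kif21a: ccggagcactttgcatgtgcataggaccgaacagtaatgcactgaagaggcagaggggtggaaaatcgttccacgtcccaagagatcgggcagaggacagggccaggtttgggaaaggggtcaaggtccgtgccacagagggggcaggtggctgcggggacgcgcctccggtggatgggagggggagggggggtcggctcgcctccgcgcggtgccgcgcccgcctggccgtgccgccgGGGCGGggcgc
Klc1: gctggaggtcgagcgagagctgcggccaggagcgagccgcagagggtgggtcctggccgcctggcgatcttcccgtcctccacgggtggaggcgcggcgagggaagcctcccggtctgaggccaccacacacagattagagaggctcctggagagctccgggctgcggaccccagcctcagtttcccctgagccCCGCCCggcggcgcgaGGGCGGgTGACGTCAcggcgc
Kif5c: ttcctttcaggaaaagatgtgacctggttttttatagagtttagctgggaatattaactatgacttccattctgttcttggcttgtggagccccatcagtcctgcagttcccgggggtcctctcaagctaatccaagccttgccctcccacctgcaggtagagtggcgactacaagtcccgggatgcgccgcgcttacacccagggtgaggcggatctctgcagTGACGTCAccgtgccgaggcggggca
The T-box letters occur in none of the 8 members' windows and in 3.33% of the 32851 windows of the table. The cAMP response element occurs in 2 members, Klc1 (33 bases before the start) and Kif5c (26 bases before), and in 1.55% of all windows. The GC box occurs in 6 members, Kif21a and Klc1 among them, and in 32.7% of all windows. The E-box occurs in 1 member, Kif1a, 96 bases before the start of the window shown, and in 13.0% of all windows, and it is the only one of the 7 motifs found upstream of Kif1a. The CCAAT box occurs in Kif1b, Kif3a and Kif3b and in 33.8% of all windows. The NRF1 motif and the RE1 letters occur in no member and in 0.78% and 0.30% of all windows. Matches to different motifs overlap in 1 member, Kif3a. These matches describe letters in 250 bases and say nothing of binding. The paper reports TBR1 binding by ChIP-seq near genes that differ between genotypes and describes Kif1a as directly driven by TBR1. That evidence was not examined here.

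On the genome (GRCm38, GENCODE M21) Kif1a (ENSMUSG00000014602) spans chr1:93015464-93101951 on the minus strand, Kif21a (ENSMUSG00000022629) chr15:90933276-91049948 on the minus strand, and Klc1 (ENSMUSG00000021288) chr12:111758849-111807844 on the plus strand. Kif3a (ENSMUSG00000018395) lies at chr11:53567379-53601967 on the plus strand and Kif5c (ENSMUSG00000026764) at chr2:49619298-49774778 on the plus strand.

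Where the motors sit among the sorted cells was then compared within each library. Kif1a was higher in typical neuronal cells than in the other sorted cells, at 773 against 377 CPM in wild-type, 491 against 363 in heterozygous and 504 against 283 in homozygous cells. The log2 ratios were 1.03 (0.96 to 1.11), 0.44 (0.36 to 0.52) and 0.83 (0.72 to 0.95), which makes the heterozygous ratio the smallest. The composition of the other sorted cells differed between libraries, with excitatory neurons-like cells making up 465 of 1398 in the heterozygous and 199 of 2873 in the wild-type library, and the part this plays was not tested. These cell numbers depend on the clustering, since at Leiden resolution 1 in place of 0.5 the cells given that name were 262 and 66, 28 of the latter in a cluster led by Eomes. Kif5a followed the same order, with log2 ratios of 0.95 (0.74 to 1.16), 0.25 (0.07 to 0.43) and 0.56 (0.30 to 0.83). Kif5c was higher in typical cells by 0.34 (0.20 to 0.48), 0.18 (0.05 to 0.32) and 0.49 (0.30 to 0.69).

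Kif5b had the opposite distribution, at 157, 142 and 148 CPM in the other sorted cells. Its log2 ratio of typical over other cells was −0.69 (−0.86 to −0.52), −0.73 (−0.88 to −0.58) and −0.75 (−0.94 to −0.55), within counting error in the 3 libraries. Kif5b therefore made up 44.9% (43.1 to 46.6), 39.8% (37.4 to 42.3) and 47.2% (43.8 to 50.7) of Kif5 UMIs in the other cells, against 26.0% (23.7 to 28.4), 25.7% (24.3 to 27.2) and 27.2% (25.2 to 29.2) in typical cells. Kif21a was also lower in typical than in other cells, by −0.41 (−0.65 to −0.19), −0.39 (−0.64 to −0.14) and −0.48 (−0.78 to −0.17). The median log2 ratio over all genes in this comparison was −0.46, −0.14 and −0.29, so the Kif21a ratio is on the side of the median gene and the Kif1a ratio is not. Klc1 was above 0 in each library, at 0.48 (0.34 to 0.63), 0.09 (−0.03 to 0.22) and 0.33 (0.17 to 0.49). Kif1b, at −0.25 (−0.39 to −0.12), −0.30 (−0.43 to −0.17) and −0.04 (−0.22 to 0.13), and Kif3a, at −0.34 (−0.59 to −0.10), −0.26 (−0.48 to −0.04) and −0.06 (−0.41 to 0.29), were below 0. Both were above the median gene in the wild-type and homozygous libraries and below it in the heterozygous library. Kif5b was lower in typical cells by at least 1.5-fold in each library, as were 44.2%, 22.5% and 35.2% of all genes.

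**Figure D3:**
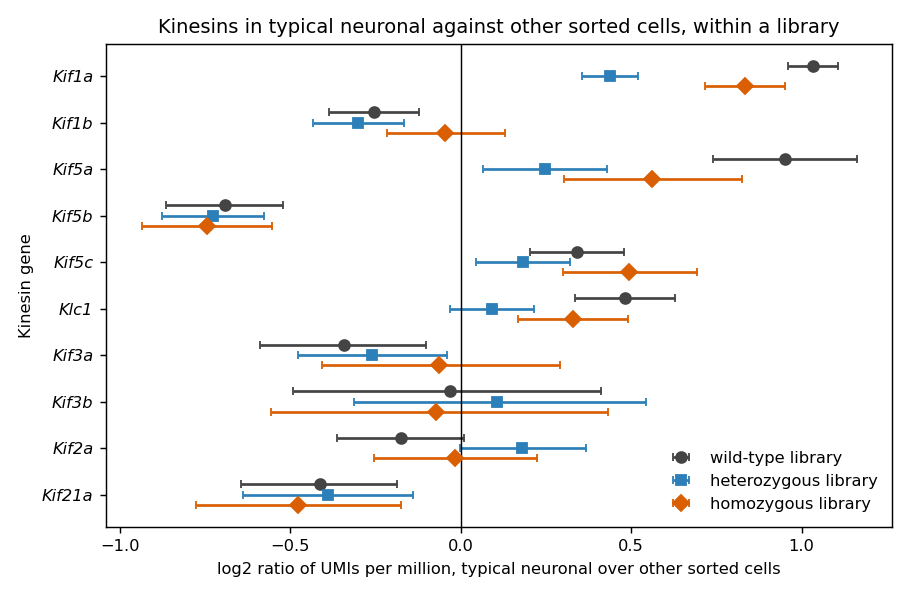
Log2 ratio of CPM in typical neuronal cells over the other sorted cells of the same library for the 10 kinesins, with exact 95% counting intervals. Kif1a, Kif5a, Kif5c and Klc1 lie above 0 in all 3 libraries and Kif1b, Kif3a, Kif5b and Kif21a below 0 in all 3, with intervals that include 0 for Klc1 in the heterozygous library and for Kif1b and Kif3a in the homozygous library.

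Atypical neuronal cells had less Kif1a than typical cells in every library, at 562, 291 and 352 CPM. The log2 ratio of typical over atypical was 0.46 (0.30 to 0.62) in wild-type, 0.75 (0.40 to 1.14) in heterozygous and 0.52 (0.34 to 0.71) in homozygous cells. The median over all genes was −0.04, 0.07 and 0.08. Among the reference genes, Tubb3 had larger ratios than Kif1a, at 0.76, 1.26 and 0.89. Gapdh (0.10, 0.34 and 0.18) and Actb (−0.02, 0.27 and −0.12) had smaller ones. Within the atypical cells, which the authors left out of their comparison of genotypes, the heterozygous over wild-type ratio of Kif1a was −0.95 (−1.36 to −0.56) and the homozygous ratio −0.68 (−0.91 to −0.45), so both mutant libraries were again below wild-type. The heterozygous atypical class rests on 107 cells and 63 Kif1a UMIs. The sum of its excitatory markers, though not Tbr1 or Neurod2 singly, stands at the typical level.

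**Figure D4:**
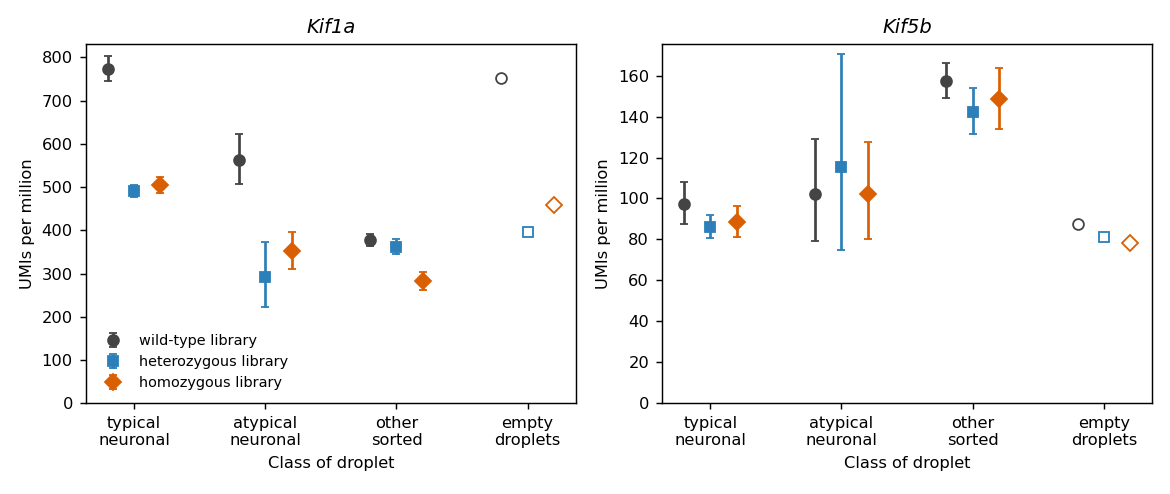
Level of Kif1a (left) and Kif5b (right) in CPM in typical, atypical and other sorted cells (filled, with exact Poisson 95% intervals) and in empty droplets (open), 1 point per library. Kif1a in the wild-type library has 773 in typical cells and 753 in empty droplets, while Kif5b is highest in the other sorted cells at 142 to 157.

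The other sorted cells were clustered without the kinesin genes and named from marker lists, with 12.4%, 25.9% and 17.9% of cells left unnamed in the wild-type, heterozygous and homozygous libraries. Kif1a in the excitatory neurons-like cluster, led by Nrgn and Bhlhe22, had 654, 457 and 444 CPM. The log2 ratios to wild-type there were −0.52 (−0.70 to −0.33) and −0.56 (−0.83 to −0.30), and none of these cells is in the neuronal table. Deeper and shallower cells are joined under this name in unequal shares. At Leiden resolution 1, where the unnamed share is 17.5%, 39.3% and 35.1%, a cluster led by Nrgn and Bhlhe22, with a median of 4558 UMIs, holds 38, 260 and 26 cells and had 706, 452 and 452 CPM of Kif1a. An unnamed cluster with Nrgn among its leading genes and a median of 1732 UMIs holds 146, 170 and 177 cells and had 619, 456 and 433 CPM. A second cluster that takes the name, led by Eomes and Sema3c, holds 28, 2 and 4 cells. Inhibitory neurons-like cells fall into a cluster led by Npy and Sst and another led by Igfbpl1 and Dlx6os1. The second holds 589 of 713 such cells in the wild-type library but 81 of 181 and 92 of 201 in the mutant libraries, so these clusters are given apart. Kif1a had 498, 419 and 366 CPM in the Npy and Sst cluster, with log2 ratios of −0.25 (−0.55 to 0.05) and −0.44 (−0.76 to −0.13). It had 497, 343 and 255 CPM in the Igfbpl1 and Dlx6os1 cluster, with log2 ratios of −0.53 (−0.97 to −0.13) and −0.96 (−1.49 to −0.48).

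Lower Kif1a in the mutant libraries was also measured outside neurons. Astrocytes and radial glia-like cells had 432, 284 and 294 CPM, with log2 ratios of −0.61 (−0.91 to −0.32) and −0.56 (−0.86 to −0.27). Endothelial-like cells, whose marker genes are those of vessel lining, had 237, 124 and 106 CPM, with log2 ratios of −0.93 (−1.47 to −0.43) and −1.17 (−1.65 to −0.71). Oligodendrocyte lineage-like cells fall into 2 clusters whose shares differ between libraries, so no ratio over both is given. The larger, led by C1ql1 and Pdgfra, had 361, 304 and 345 CPM of Kif1a on 202, 8 and 23 UMIs. Meningeal fibroblasts-like cells had log2 ratios of −1.20 (−2.45 to −0.16) and −1.20 (−2.31 to −0.26), on 8 and 10 mutant UMIs, and cycling-like cells −0.95 (−1.92 to −0.12) and −0.29 (−1.22 to 0.51), on 12 and 13. Microglia-like cells, at 250, 342 and 301 CPM, mural-like cells, at 208, 217 and 198 CPM, and blood-like cells, at 163, 68.1 and 114 CPM, had intervals of the ratio that include 0 in both comparisons. Of the 7 clusters with at least 20 Kif1a UMIs in each library, named or not, 6 were below wild-type in each mutant library, the microglia-like cluster being the exception, and the interval lay below 0 in 5 for the heterozygous and 6 for the homozygous library. The difference in Kif1a between libraries, read by cluster, was thus not restricted to the typical neuronal cells. Its relation to the free RNA values above was not tested beyond the subtraction given there. Over all other sorted cells, whose composition differed between libraries, the log2 ratio was −0.06 (−0.15 to 0.03) for the heterozygous and −0.42 (−0.53 to −0.30) for the homozygous library.

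Kif1a UMIs were found in 75.6% (73.5 to 77.6) of typical cells in wild-type, 58.7% (57.3 to 59.98) in heterozygous and 51.8% (50.2 to 53.4) in homozygous cells. With each cell thinned to 1000 UMIs, the shares were 53.2%, 39.1% and 39.2%, so the gap between the mutant libraries is not present at equal depth. In endothelial-like cells, at median depths of 2875, 2431 and 1936 UMIs, the unthinned shares were 50.3%, 23.6% and 20.3%. Those shares lie below the unthinned shares of the typical cells in each library, although the endothelial-like cells are deeper. Whether the Kif1a UMIs of endothelial-like cells are free RNA or their own was not tested.

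**Figure D5:**
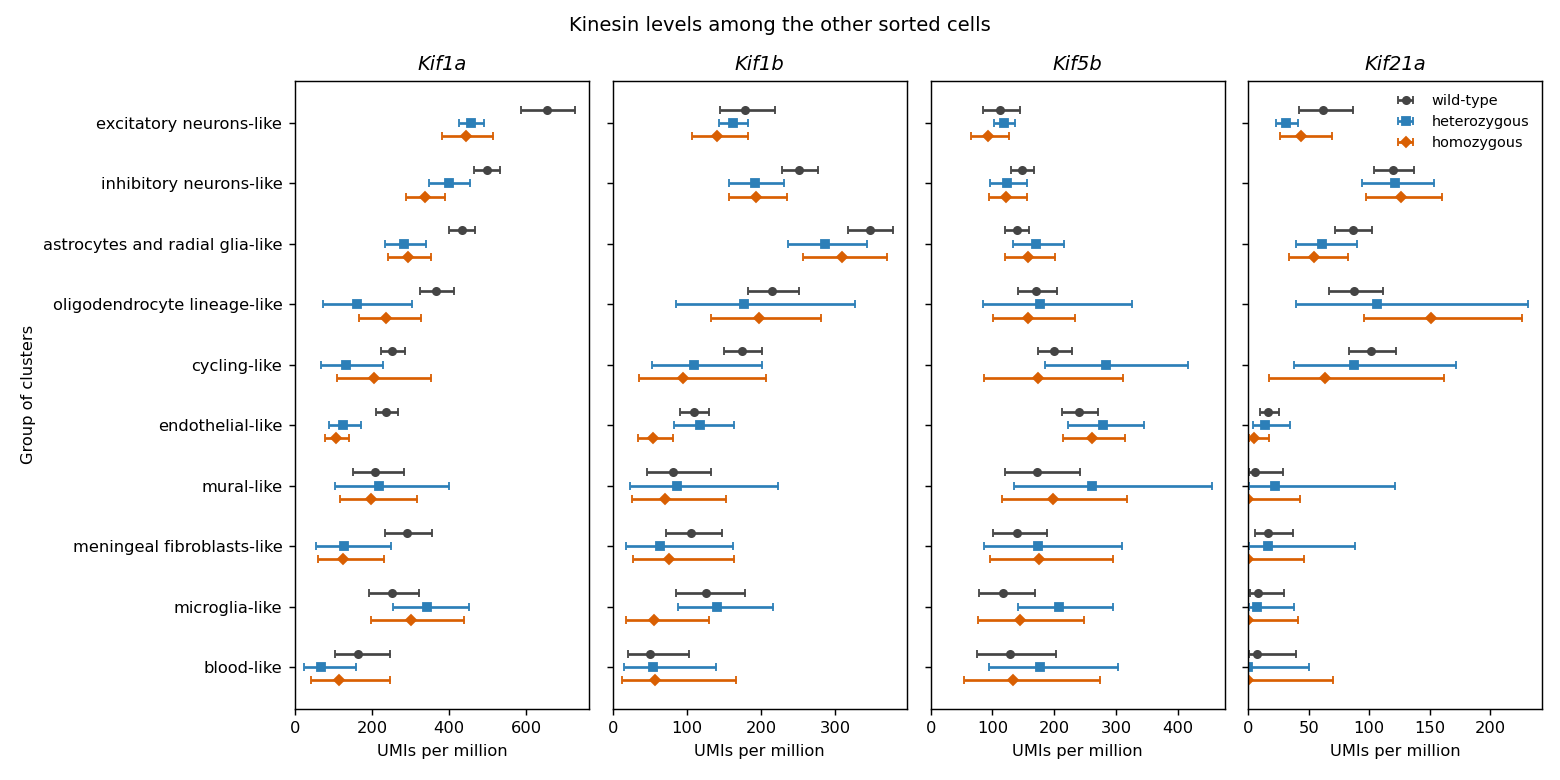
Level of Kif1a, Kif1b, Kif5b and Kif21a in CPM in the 10 named groups of the other sorted cells, 1 point per library with exact Poisson 95% intervals. Kif1a is highest in excitatory neurons-like cells at 654, 457 and 444 and Kif1b in astrocytes and radial glia-like cells at 347, 286 and 309, while Kif5b in endothelial-like cells is at 241 to 279. The inhibitory neurons-like and oligodendrocyte lineage-like rows each join 2 clusters whose shares differ between libraries. The astrocytes and radial glia-like row also joins 2 clusters.

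Kif1b was highest of the 10 named groups in astrocytes and radial glia-like cells, at 347, 286 and 309 CPM in the wild-type, heterozygous and homozygous libraries. Kif5b had 241, 279 and 261 CPM in endothelial-like cells, the highest level in the wild-type and homozygous libraries, while in the heterozygous library cycling-like cells had 284 CPM on 26 UMIs, within counting error of it. Kif21a is given by cluster, since the inhibitory neurons-like and oligodendrocyte lineage-like groups join clusters in shares that differ between libraries. Its values in the oligodendrocyte lineage-like clusters are not given. Over named groups, joined ones included, the Kif21a interval to wild-type lay below 0 in 1 of 9 for the heterozygous library, and above 0 in none. For the homozygous library it lay above 0 in 1 of 6 and below 0 in none. The group below 0 in the heterozygous library was the excitatory neurons-like cells. Kif21a had 61.5, 31.0 and 43.6 CPM there, on 32, 52 and 18 UMIs. The log2 ratios to wild-type were −0.99 (−1.65 to −0.31) and −0.50 (−1.42 to 0.38). In endothelial-like cells Kif21a had 16.0, 13.5 and 4.70 CPM on 18, 4 and 2 UMIs. In the Npy and Sst cluster of inhibitory neurons-like cells Kif21a had 183, 148 and 144 CPM, with log2 ratios to wild-type of −0.30 (−0.82 to 0.20) and −0.34 (−0.87 to 0.17). It had 98.5, 51.8 and 78.0 CPM in the Igfbpl1 and Dlx6os1 cluster, on 124, 8 and 11 UMIs. Klc1 in the Npy and Sst cluster had 266, 306 and 408 CPM, with log2 ratios of 0.20 (−0.18 to 0.58) and 0.62 (0.26 to 0.98). In the Igfbpl1 and Dlx6os1 cluster Klc1 had 145, 162 and 135 CPM, on 182, 25 and 19 UMIs.

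The rest of the transport machinery was read from lists fixed by known role. Of the other kinesins and light chains, 5 of 21 reached 20 CPM in typical cells. Of these, Kifc2, a minus-end-directed motor of neurons, was higher by 0.32 on the log2 scale in both mutant libraries, at 102, 150 and 154 CPM and log2 ratios of 0.55 (0.38 to 0.71) and 0.58 (0.41 to 0.76), and none was lower. That is 1 of 5 genes, beside 11.7% of all genes higher in both. None of the 14 mitotic kinesins reached 20 CPM. Of the 27 adaptors and regulators, 17 reached 20 CPM, of which 4 were higher in each mutant library, beside 17.1% and 17.2% of all genes, and 0 and 1 were lower in the heterozygous and homozygous libraries, beside 9.5% and 8.5%. The adaptor Fez1 (282, 355 and 378 CPM), the lysosomal GTPase Arl8a (271, 357 and 349 CPM) and Kif1bp, a KIF1-binding protein (33.8, 44.6 and 49.4 CPM), were higher in both, as were 11.7% of all genes. The median log2 ratio of the adaptors was 0.06 and −0.01, beside 0.06 and 0.08 for all genes.

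Retrograde transport by dynein was measured with 23 of 29 genes at 20 CPM or more. In the heterozygous library 4 were higher and 1 lower by 0.32 on the log2 scale, and in the homozygous library 5 were higher and 1 lower, near the shares of all genes that were higher (17.1% and 17.2%) or lower (9.5% and 8.5%). The median log2 ratio of the 23 was 0.10 and 0.14, beside 0.06 and 0.08 for all genes. The lower gene in both was Dync1h1, the dynein heavy chain, at 54.8, 37.6 and 43.6 CPM and log2 ratios of −0.54 (−0.79 to −0.29) and −0.33 (−0.60 to −0.06). Higher in both were Dync1i1, an intermediate chain (65.9, 83.5 and 88.4 CPM), Dynlt3, a light chain (58.8, 95.4 and 80.2 CPM), and Capza2, a capping protein subunit of dynactin (155, 292 and 278 CPM). Over all genes, 5.68% were lower in both and 11.7% higher in both. Of the vesicle cargo genes of KIF1A, 10 of 14 reached 20 CPM. Of these 10, 4 and 3 were higher by 0.32 on the log2 scale in the heterozygous and homozygous libraries, 0 and 1 were lower, and the median log2 ratio was 0.25 and 0.21, beside 17.1% and 17.2% of all genes higher, 9.5% and 8.5% lower and medians of 0.06 and 0.08. Vamp2, a synaptic vesicle SNARE (551, 804 and 732 CPM), Chgb, a dense-core vesicle granin (41.4, 52.7 and 56.8 CPM), and Cpe, a processing enzyme of dense-core vesicles (877, 1123 and 1100 CPM), were higher in both, as were 11.7% of all genes.

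Over the 9 sums of 3 libraries and 3 classes, the genes whose level followed Kif1a most closely were Pebp1, Polr1d, Hist3h2ba, Ppia and Sms, with Pearson r from 0.936 to 0.963 among the 1291 genes averaging 100 CPM or more. The 9 sums share libraries and depth, so this is a description without a test. Among the members, Kif5c came closest to Kif1a with r of 0.815, and Kif5b ran opposite with r of −0.623.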

How the data were processed

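The authors aligned the 10X libraries of FACS-sorted cells to mm10 with Cell Ranger 2.0.1 and deposited UMI counts, unnormalized, for every barcode and, after limits on mitochondrial share, UMIs and genes, for 17396 cells and 14933 genes. The annotation version is not given in the sources used here. The mitochondrial share was deposited by the authors as a fraction of UMIs per cell. A neuronal table, which the authors deposited as the natural log of scaled counts, was used only for its cells and genes. A scaled table was not used. Raw UMI counts were summed per library (the library name deposited with each cell gives it) and class of cells, and divided by the total. No deposited column of another series was used. With 1 library per genotype, no test, p-value or fold threshold by test was made, and cells were not treated as replicates. Exact Poisson, conditional binomial and binomial (Clopper-Pearson) 95% intervals cover counting error only. The 5453 other sorted cells were clustered (Python, scanpy, 2000 variable genes, 30 components, 15 neighbors, Leiden resolution 0.5), and a cluster was named when at least 40% of a marker list was raised and a marker stood among its 10 leading genes, limits set after seeing the clusters, as was the minimum of 20 UMIs per library for counts over clusters. The values of the smaller oligodendrocyte lineage-like cluster are not reported here. No doublet caller was run, and removal of the 5% deepest cells stands in for one.

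The 10 members are all named. Genes of the other lists are named only where past a log2 ratio of 0.32 in both mutant libraries at 20 CPM, together with the 5 genes most like Kif1a by Pearson r and the control genes Tbr1, Actb, Gapdh and Tubb3. The members and lists were chosen with earlier results of these data known. Steps were tested on simulated data. Scaling factors of edgeR and DESeq2 were used as alternatives only.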

Additional observations from a re-analysis of the deposited data

How the results depend on the processing

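No paired analysis was possible because each genotype has 1 library and the groups share 1 replicate number. Leaving out a replicate was not possible for the same reason. Among the 11 alternatives for the ratios between libraries, the log2 ratio of Kif1a to wild-type stayed between −0.74 and −0.60 for the heterozygous and between −1.04 and −0.59 for the homozygous library. The lowest values came from mean raw UMIs per cell, −0.74 and −1.04, which keep the difference in UMIs per cell between libraries. The homozygous over heterozygous ratio of Kif1a was −0.30 under that setting. With cells matched in bins of 100 UMIs the homozygous over wild-type ratio was −0.72 and the homozygous over heterozygous ratio −0.064. Of the 30 ratios between libraries, mean raw UMIs per cell turned the sign of 8. Of these, 3 had an interval without 0: Klc1 (homozygous over wild-type −0.15, homozygous over heterozygous −0.21) and Kif1b (homozygous over heterozygous −0.18). The other 5 are homozygous over heterozygous for Kif1a, Kif5b and Kif21a and both homozygous ratios of Kif3b. That scale put the median of all genes at −0.34 for homozygous over wild-type and 52.4% of all genes lower by 0.32 (log2). Of the 9 members at 20 CPM or more, 8 were lower there in place of 3, a count that includes this shift of all genes. The other settings turned the sign of at most 5 of the 30. Kif5c was past 0.32 in the homozygous library with genes of the neuronal table (−0.37), DESeq2 size factors (−0.32) and thinning (−0.36), and in the heterozygous library with thinning (−0.33). Kif3a fell short of it for homozygous over heterozygous with matching in bins (−0.29). Matching in bins put 1 member, Klc1, higher by 0.32 in the homozygous library in place of 0, and a minimum of 100 CPM, which leaves fewer members, left 1 lower member in the homozygous library, Kif1a, and 2 in the heterozygous library, Kif1a and Kif1b. The other settings moved no count of members past 1.5 times. Thinning lowered the share of cells with a UMI for all 30 values. Subtraction of free RNA raised the wild-type ratio of Kif1a in typical over other cells to 1.52. The share set in typical cells was applied to the other cells too, for which none was estimated. Depth limits Kif3b, with 60 UMIs in the wild-type typical cells, and the clusters with few cells.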
